A study of Mus musculus with 20 samples.

Results

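The levels of 10 heat shock gene transcripts were read from bulk RNA sequencing of the proximal colon (PC), in 20 mice of the inbred strain C57BL/6. The genes were taken from a list of cytosolic, mitochondrial, and endoplasmic reticulum (ER) chaperones, and all 10 listed genes were among the genes of the count table, which numbers 12701. From weaning at about 3 weeks of age all mice ate the TWD (Total Western Diet), which gives rodents the nutrient intake typical of Americans, for 6 weeks. For 3 more weeks the TWD held 0, 2, 5, or 10% RPS (resistant potato starch), a raw starch that escapes digestion in the small intestine and reaches the large intestine. There were 5 libraries for each diet, every one from a different mouse, so replicates are separate animals. The 0% RPS mice ate the TWD throughout, and no group on ordinary chow was measured. Each library came from a segment of the PC taken near the cecum, which held epithelium and muscle. All 11 epithelial markers listed stood at 3571 normalised counts or more and all 11 smooth muscle markers at 2138 or more in every library (a normalised count is a read count divided by the DESeq2 size factor of its library).

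Heat shock proteins are chaperones that bind unfolded protein. In the cytosol, HSP70 proteins (Hspa1a, Hspa1b, and Hspa8) hold client peptides in a cycle that J-domain proteins such as Dnajb1 start and exchange factors such as Hsph1 end, HSP90 (Hsp90aa1) takes over folding intermediates of kinases and receptors, and small heat shock proteins such as Hspb1 keep aggregating proteins soluble. Hspd1 and Hspe1 form the barrel and the lid of the mitochondrial chaperonin, and Hspa5, also called BiP, is the HSP70 of the ER. The cytosolic genes are induced by heat shock factor 1 (HSF1), which binds repeats of the letters GAA in alternating orientation, and Hspa5 is induced by the unfolded protein response. In the intestinal epithelium, bacterial products and short-chain fatty acids are known to induce inducible HSP70 and the product of Hspb1.

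The promoters of members that carried the letters of a heat shock element or an ER stress element are shown first, since known regulators of the family bind such letters. The letters were found by sequence alone, and binding to them was not measured. Each sequence is the 250 bases before the start of the canonical GENCODE transcript in the mouse assembly GRCm39, written in the direction of transcription. Hspa1a (chr17:35191133-35191382, minus strand) and Hspa1b (chr17:35178215-35178464, minus strand) are single-exon genes that lie 9951 bases apart, and 247 of the 250 promoter bases were the same. Capitals mark a pair of heat shock units (GAANNTTC or TTCNNGAA), which starts at -104 from the transcript start in both.
Hspa1a: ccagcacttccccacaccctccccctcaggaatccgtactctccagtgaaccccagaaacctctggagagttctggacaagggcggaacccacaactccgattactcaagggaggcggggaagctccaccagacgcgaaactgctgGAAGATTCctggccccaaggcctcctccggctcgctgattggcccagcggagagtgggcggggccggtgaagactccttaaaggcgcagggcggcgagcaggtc
Hspa1b: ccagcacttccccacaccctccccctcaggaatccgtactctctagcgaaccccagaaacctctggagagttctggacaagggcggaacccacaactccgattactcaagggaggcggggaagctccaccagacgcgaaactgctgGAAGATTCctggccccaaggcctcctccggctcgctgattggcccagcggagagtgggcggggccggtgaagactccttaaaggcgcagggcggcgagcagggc

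Such a pair was also present in the promoters of Hspb1 (chr5:135916510-135916759, plus strand, at -104 and at -84) and Hsph1 (chr5:149559807-149560056, minus strand, at -28).
Hspb1: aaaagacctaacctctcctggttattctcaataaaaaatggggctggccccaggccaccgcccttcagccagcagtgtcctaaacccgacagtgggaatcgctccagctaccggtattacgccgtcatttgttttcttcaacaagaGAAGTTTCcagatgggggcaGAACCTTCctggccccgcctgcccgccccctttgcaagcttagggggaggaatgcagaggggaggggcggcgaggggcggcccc
Hsph1: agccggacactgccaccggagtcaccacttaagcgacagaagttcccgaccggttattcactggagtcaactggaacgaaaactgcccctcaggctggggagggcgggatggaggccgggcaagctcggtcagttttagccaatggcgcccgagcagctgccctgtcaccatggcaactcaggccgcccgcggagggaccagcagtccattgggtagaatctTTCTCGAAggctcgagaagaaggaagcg

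Hspd1 (chr1:55127184-55127433, minus strand) and Hspe1 (chr1:55127041-55127290, plus strand) are read in opposite directions from starts 108 bases apart, so 107 bases of their windows are the same DNA. In this stretch lie 2 overlapping runs of 3 heat shock units (GAANNTTCNNGAA or TTCNNGAANNTTC), in capitals, which start at -52 and -47 from Hspd1 and, read from the other strand, at -73 and -68 from Hspe1. The promoter of Hspa5 (chr2:34661854-34662103, plus strand) is shown with an ER stress element (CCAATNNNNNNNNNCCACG, in capitals) at -67.
Hspd1: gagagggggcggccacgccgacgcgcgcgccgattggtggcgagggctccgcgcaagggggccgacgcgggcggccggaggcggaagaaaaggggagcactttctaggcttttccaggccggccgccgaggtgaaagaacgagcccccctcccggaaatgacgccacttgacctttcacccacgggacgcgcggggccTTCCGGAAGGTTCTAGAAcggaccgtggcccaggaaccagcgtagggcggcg
Hspa5: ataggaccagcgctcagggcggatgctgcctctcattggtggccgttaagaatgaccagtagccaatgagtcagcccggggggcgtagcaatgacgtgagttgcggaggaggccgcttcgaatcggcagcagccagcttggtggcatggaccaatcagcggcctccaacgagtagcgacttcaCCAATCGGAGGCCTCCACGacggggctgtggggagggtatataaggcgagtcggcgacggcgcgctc

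On either strand, a run of 3 heat shock units was found in 0.34% of the 11761 promoters of protein-coding genes in the table (40 promoters), and 2 units were found in 10.75%. Among the 10 members 2 and 6 promoters had them, but each run of 3 contains a run of 2, Hspd1 and Hspe1 share theirs, and Hspa1a and Hspa1b are near copies. The ER stress element was in 15 promoters (0.13%), of which Hspa5 was the only member. No exact match to the letters of 2 or 3 heat shock units was found in the promoter windows of Hspa8, Hsp90aa1, Dnajb1, and Hspa5. Units with mismatched letters, or outside these windows, were not searched for. The absence of a match therefore does not show that these genes lack a heat shock element. The coding sequences of Hspa1a and Hspa1b differ in 11 of 1926 aligned columns (99.4% identical), whereas Hspa1a was 73.9% identical to Hspa8 and 58.8% to Hspa5. Of all 50-base windows, the read length used, 58.8% of those in Hspa1a transcripts also occur in Hspa1b. The division of reads between both genes is therefore uncertain, and their sum is given beside each.

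The libraries held 20581013 to 35083751 counts (median 26354926), and 3 counts, taken as the detection floor, corresponded to 0.086 to 0.146 CPM (counts scaled to the library total), which covers counting error only. Every member stood far above that floor in every library. Per transcript length, in TPM (a share of all transcripts on a fixed scale, computed from the counts and canonical transcript lengths), Hspa8 was the highest member with a mean of 1822 ± 669 TPM (SD, n = 20). Hspd1 followed with 386 ± 51.8 TPM, then Hspa5 with 279 ± 65.2, Hsp90aa1 with 275 ± 97.8, Hspe1 with 100.3 ± 16.5, Hspb1 with 78.5 ± 21.1, Hsph1 with 60.9 ± 41.6, Hspa1b with 38.97 ± 57.9, Dnajb1 with 37.7 ± 14.7, and Hspa1a with 16.5 ± 26.5 TPM. In this order Hspa5 exceeded Hsp90aa1 in 12 of 20 libraries, and the log2 ratio of their levels was 0.06 ± 0.29 (SD). Hspb1 exceeded Hsph1 in 15 of 20, with a log2 ratio of 0.59 ± 0.79. These SDs describe the spread of single libraries, and the mean ratios were not tested. Hspa1b had a higher mean level than Dnajb1 but exceeded it in only 4 of 20 libraries. Hspa8 was above Hspd1, and Hspd1 above Hspa5, in all 20.

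Hspa1a and Hspa1b, the heat-inducible HSP70 genes, were low in most mice and very high in 1 mouse of each diet. Hspa1a stood at 283, 3299.9, 163, 90.8, and 157 normalised counts in replicates 1 to 5 of the 0% RPS diet and at 213, 172, 1466, 122, and 109.9 in those of the 2% RPS diet. In the 5% RPS diet it stood at 118, 301, 121, 1742, and 170.0 and in the 10% RPS diet at 3094, 364, 135, 104, and 175. The 4 high libraries were replicate 2 at 0%, replicate 3 at 2%, replicate 4 at 5%, and replicate 1 at 10% RPS. Between the highest of the other 16 libraries (364) and the lowest of these 4 (1466) there was no value, and all 4 diets overlapped.

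Hspa1b was high in the same 4 mice, at 7347, 2730, 4538, and 5513 normalised counts, and ranged from 249 to 1042 in the other 16. The summed Hspa1a and Hspa1b count of the high library was 19.1 times the median of the other 4 at 0% RPS, 7.40 times at 2%, 10.9 times at 5%, and 16.1 times at 10%. Hspa1a took 24.2 to 35.9% of the sum (median 26.9%). The log2 of the sum was 10.04 ± 1.96 at 0% RPS, 9.72 ± 1.38 at 2%, 9.93 ± 1.57 at 5%, and 10.06 ± 1.82 at 10% (SD, n = 5 each). None of the 3 starch diets differed from 0% RPS beyond this spread in an exact permutation test (two-sided, p = 0.714, 0.889, and 0.976, each 0.976 when adjusted over the 3). The smallest p that 5 against 5 libraries allow is 0.00794. In bulk tissue, fewer cells of a type and less RNA per cell cannot be told apart.

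**Figure D1:**
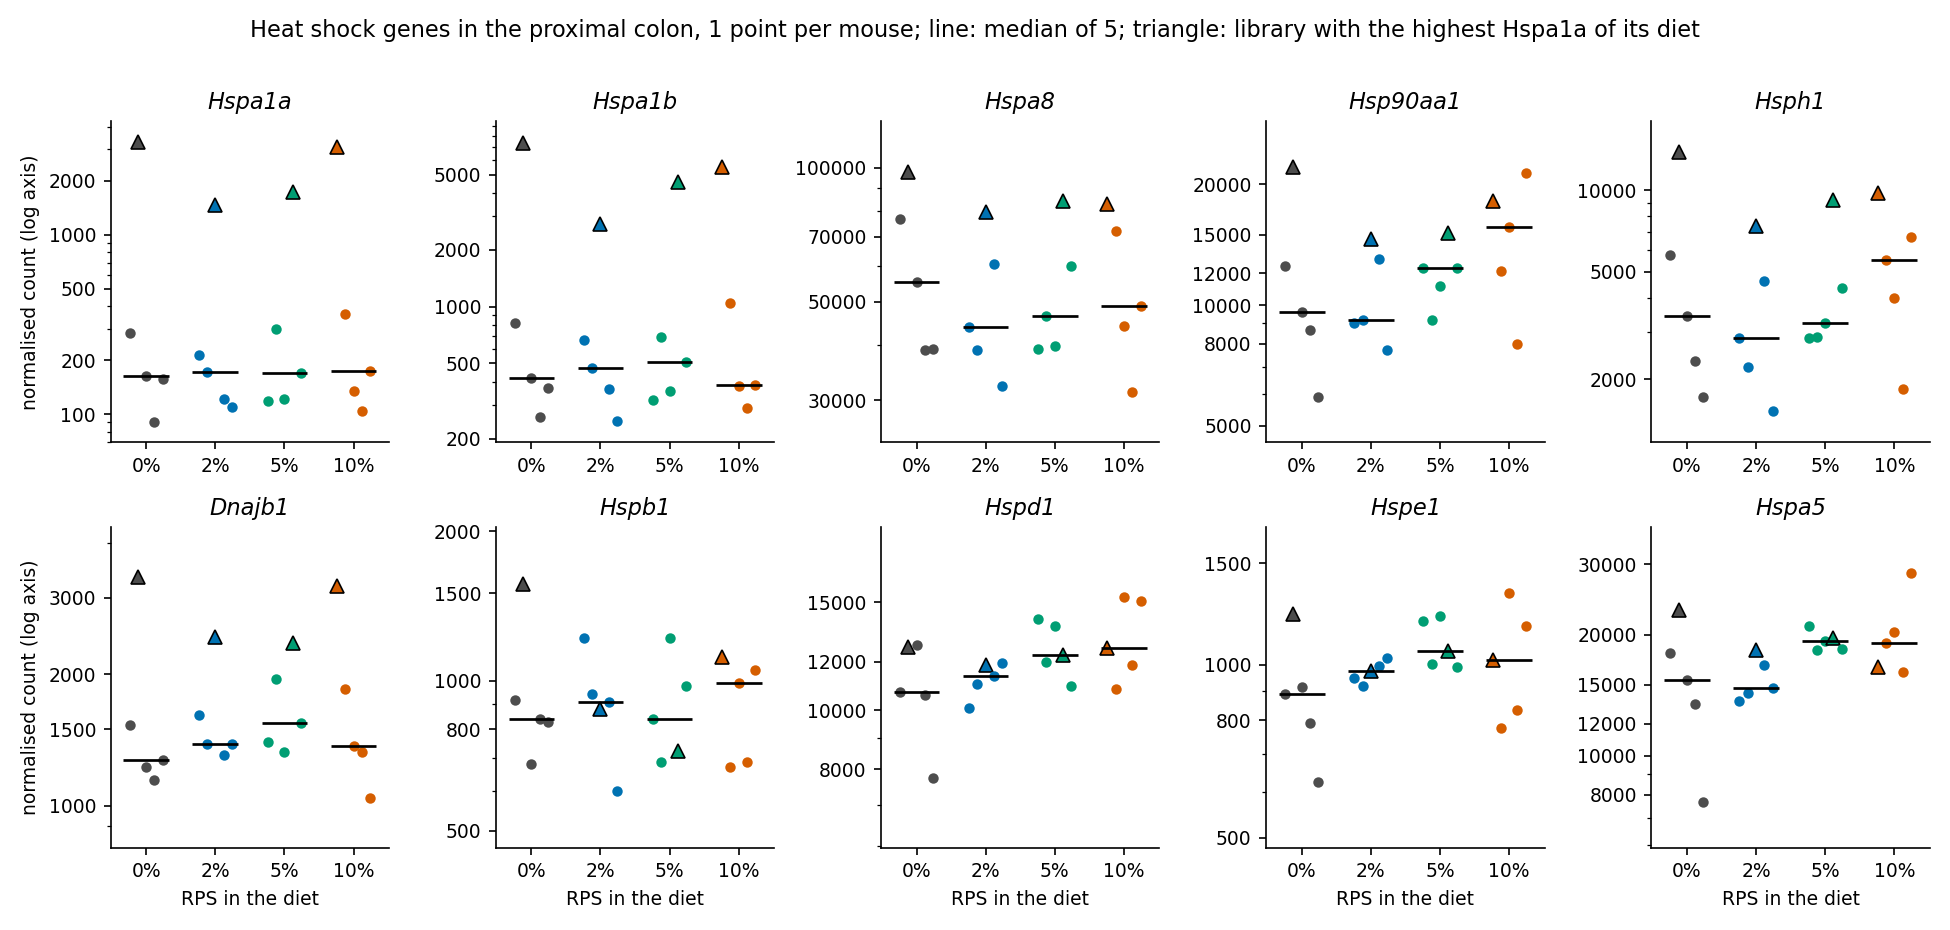
Normalised counts (log axis) of the 10 heat shock genes in each of 20 PC libraries against the percentage of RPS, with 1 point per mouse, a line at the median of 5, and a triangle for the library with the highest Hspa1a of its diet. The triangles also top Hspa8, Hsph1, and Dnajb1 in every diet, but not Hspb1, Hspd1, Hspe1, and Hspa5, and the 4 diets overlap in all 10 panels.

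Hspa8, the constitutive cytosolic HSP70, followed the same mice over a smaller range. Its normalised counts in replicates 1 to 5 were 76745, 97791, 55272, 38986, and 39160 at 0% RPS and 43896, 38942, 79661, 60657, and 32267 at 2%. At 5% RPS they were 39083, 46447, 39760, 84058, and 60093 and at 10% RPS 83080, 72097, 44102, 31359, and 48791. The highest library of each diet was the one with the highest Hspa1a, and the highest of all 20 was 3.12 times the lowest.

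The partners of HSP70 behaved alike. Dnajb1, the J-domain protein that starts the HSP70 cycle, was at 3346, 2430, 2360, and 3191 normalised counts in the 4 libraries named above and at 1043 to 1956 in the other 16. Hsph1, the exchange factor, was at 13807, 7358, 9207, and 9799 in these 4 and ranged from 1522 to 6725 elsewhere. Hsp90aa1, the inducible HSP90, had medians of 9634, 9187, 12406, and 15668 normalised counts at 0, 2, 5, and 10% RPS, with ranges of 5911 to 22109, 7742 to 14605, 9190 to 15108, and 7997 to 21316. Its highest value at 10% RPS was in replicate 5, which had the lowest Dnajb1 value of all 20 libraries (1043), and not in replicate 1. Replicate 2 of the 0% RPS diet had the highest value of its diet for 9 of the 10 members, and the highest of all 20 libraries for 7.

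Among mice of the same diet all 10 members were more variable than the median gene. The SD of log2(normalised count + 1) within diets was 1.80 for Hspa1a and 1.66 for Hspa1b, which ranked 5 and 9 of 11541 genes with a mean of 100 normalised counts or more. It was 0.94 for Hsph1 (rank 44), 0.54 for Hspa8 (rank 201), 0.51 for Dnajb1 (rank 229), and 0.51 for Hsp90aa1 (rank 233), against a median of 0.15 over all these genes. Hspb1 (0.38, rank 572), Hspa5 (0.35, rank 739), Hspe1 (0.25, rank 1957), and Hspd1 (0.20, rank 3257) varied less. Hspd1, with the smallest spread of the 10, still stood in the upper 28.2% of the ranked genes.

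**Figure D2:**
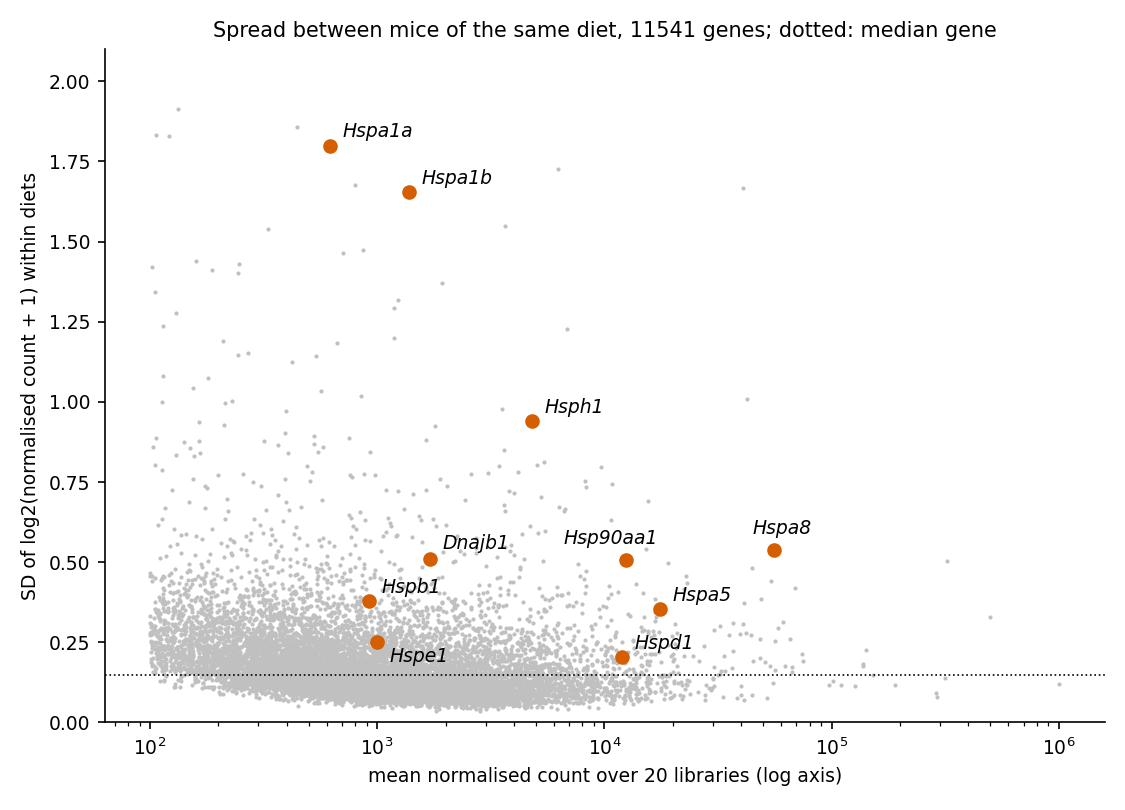
SD of log2(normalised count + 1) between mice of the same diet against mean normalised count (log axis) for 11541 genes, grey, with the 10 heat shock genes in orange. Hspa1a (1.80), Hspa1b (1.66), and Hsph1 (0.94) lie near the top, and all 10 lie above the median gene (0.15, dotted).

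Against this spread no member changed with the diet. The effect of RPS was tested with DESeq2 over all genes, and a gene was counted as changed where the adjusted p did not exceed 0.05 and the fold change was at least 1.5. At 2% RPS 0 of the 10 members changed, while 0.0239% of all tested genes did. At 5% RPS 0 of 10 changed beside 0.438% of all genes, and at 10% RPS 0 of 10 beside 0.917%. edgeR called 0 members in each comparison, beside 0%, 0.0566%, and 0.323% of all genes. DESeq2 gave Hspa1a and Hspa1b no p value under its Cook filter, which acts on single libraries with extreme counts, and without this filter, a setting chosen after seeing the data, their adjusted p values were 0.784 to 0.988. At an unadjusted p under 0.05, 0 members passed at 2% RPS (8.7% of all genes), 0 at 5% RPS (16.6%), and 1 at 10% RPS (18.8%), which was Hspd1. In no comparison with 0% RPS did the libraries of a member separate, which 0.74%, 2.43%, and 2.52% of all genes did at 2, 5, and 10% RPS. The median log2 fold change of the 10 was -0.11, -0.06, and 0.04, against medians of -0.01, -0.01, and 0.00 over all genes, and 3, 5, and 6 members had a positive value. The 3 comparisons share the 0% RPS libraries.

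The precision differed greatly between members. At 10% RPS the log2 fold change was -0.05 for Hspa1a (95% interval -2.26 to 2.17), -0.28 for Hspa1b (-2.32 to 1.76), and 0.04 for Hsph1 (-1.15 to 1.24), so that large changes of these genes in either direction were not detectable with 5 mice. For Hspb1 (-0.10, interval -0.53 to 0.34), Hspd1 (0.27, 0.03 to 0.51), and Hspe1 (0.21, -0.09 to 0.51) the whole interval at 10% RPS lay within 1.5-fold of no change. At 5% RPS this held for Hspb1 and Hspd1, and at 2% RPS for Hspb1, Hspd1, Hspe1, and Hspa5. Intermediate widths were found for Hspa8 (-0.14, -0.78 to 0.50), Dnajb1 (0.04, -0.64 to 0.73), Hsp90aa1 (0.36, -0.28 to 0.99), and Hspa5 (0.38, -0.01 to 0.76).

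**Figure D3:**
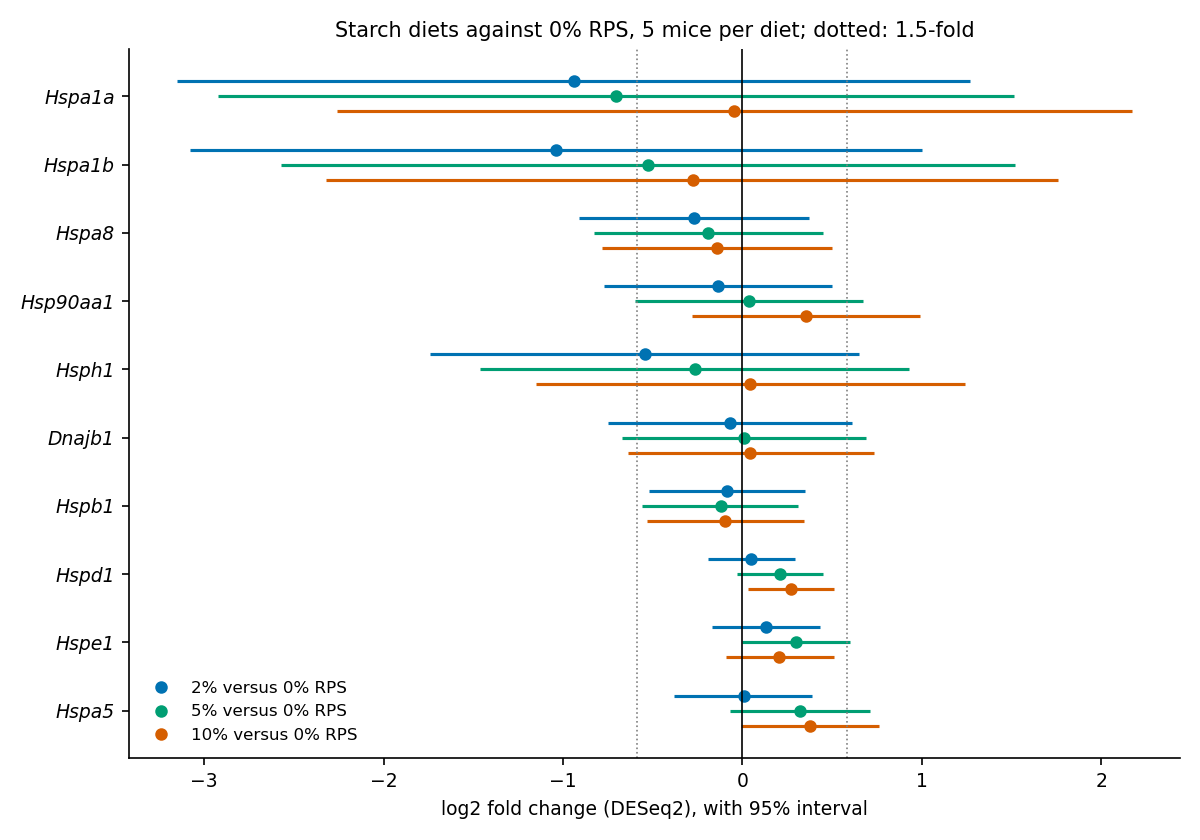
Log2 fold change (DESeq2) of each heat shock gene at 2, 5, and 10% RPS against 0% RPS with its 95% interval, 5 mice per diet. The intervals of Hspa1a and Hspa1b are the widest (-2.26 to 2.17 and -2.32 to 1.76 at 10% RPS), those of Hspd1 stay within 1.5-fold (dotted lines), and no difference passed the adjusted threshold.

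Hspd1, the mitochondrial chaperonin, had the smallest unadjusted p of the members with a DESeq2 p value at 10% RPS (0.0275) and in the trend (0.0111), while at 5% RPS that of Hspe1 (0.0529) was below that of Hspd1 (0.085). Hspd1 stood at 10710.3, 12665, 12764, 10585, and 7745 normalised counts at 0% RPS and at 10094, 11033, 11868, 11369, and 11953 at 2%. At 5% RPS it stood at 14070.4, 11966, 13711, 12320.3, and 10954 and at 10% RPS at 12631, 10829, 15308, 11834, and 15055. The means were 10894 ± 2042, 11264 ± 754, 12604 ± 1283, and 13131 ± 1979 (SD, n = 5 each), and every diet overlapped 0% RPS. The log2 fold change was 0.05 ± 0.12 (SE) at 2%, 0.21 ± 0.12 at 5%, and 0.27 ± 0.12 at 10% RPS, with adjusted p of 0.936, 0.373, and 0.196.

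Hspe1, its co-chaperonin, stood at 888, 1227, 915, 792, and 624 normalised counts at 0% RPS and at 948, 917, 975, 993, and 1029 at 2%. At 5% RPS it stood at 1191, 1002, 1214, 1055, and 992 and at 10% RPS at 1017, 775, 1335, 833, and 1169. The 2% RPS libraries were the closest together (972 ± 42.6) and those at 0% and 10% RPS were spread widely (889 ± 220.3 and 1026 ± 232). The log2 fold change was 0.13 ± 0.15, 0.30 ± 0.15, and 0.21 ± 0.15 (SE), with adjusted p of 0.84, 0.308, and 0.467.

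Hspa5, the ER chaperone, stood at 18023, 23069.9, 15464, 13467, and 7661 normalised counts at 0% RPS and at 13699.5, 14345, 18363, 16839, and 14749 at 2%. At 5% RPS it stood at 21020.2, 18341, 19315, 19684, and 18477 and at 10% RPS at 16601, 19122, 20308, 16187, and 28536. All 5 libraries at 5% RPS were above 4 of the 5 at 0% RPS, but replicate 2 of the 0% RPS diet was above all 5. The log2 fold change was 0.01 ± 0.20, 0.32 ± 0.20, and 0.38 ± 0.20 (SE), with adjusted p of 0.996, 0.418, and 0.284. When replicate 2 of the 0% RPS diet was left out, the change of Hspa5 at 10% RPS was 0.56 (adjusted p = 0.0367) and that of Hspe1 at 5% RPS was 0.44 (adjusted p = 0.0445), both below 1.5-fold. Over the 28 alternatives the adjusted p ranged from 0.0367 to 0.636 for Hspa5 at 10% RPS and from 0.0445 to 0.626 for Hspe1 at 5% RPS.

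Hspb1, the small heat shock protein, stood at 915, 1567, 682, 839, and 827 normalised counts at 0% RPS and at 1219.9, 942, 879, 905, and 601 at 2%. At 5% RPS it stood at 837, 686, 1217, 723, and 977 and at 10% RPS at 1116, 673, 992, 686, and 1052. The highest library was not the one with the highest Hspa1a at 2% and 5% RPS. The means were 966 ± 347, 909 ± 220.1, 888 ± 216, and 904 ± 209 (SD, n = 5), and the log2 fold changes were -0.09, -0.12, and -0.10, each with an SE of 0.22 and adjusted p of 0.936, 0.817, and 0.846.

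Between the starch levels, 0 of 10 members changed from 2 to 5% RPS (0% of all genes), from 2 to 10% RPS (0.0557%), or from 5 to 10% RPS (0.00796%) in DESeq2, and 0 in edgeR. No member passed at an unadjusted p under 0.05 in these 3 comparisons. As a linear trend over the percentage of RPS, 0 of 10 members passed an adjusted p of 0.05, beside 4.29% of all genes, and 2 passed at an unadjusted p under 0.05, beside 19.1% (0 and 2 in edgeR). These 2 were Hspd1, which was 0.03 ± 0.01 (SE) on the log2 scale higher per 1% RPS (adjusted p = 0.124), and Hspa5 with 0.04 ± 0.02 (adjusted p = 0.171). Without replicate 2 at 0% RPS the trend of Hspa5 had an adjusted p of 0.028, and without replicate 2 at 10% RPS that of Hspd1 had one of 0.0404, with ranges over 28 alternatives of 0.028 to 0.501 and 0.0404 to 0.339. A test of any difference among the 4 diets passed 0 members (2.38% of all genes), and at an unadjusted p under 0.05 also 0 (14.3%), in DESeq2 and edgeR alike.

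Within diets, some genes of the same chaperone system varied together and others did not pass or rested on few libraries. These relations were measured on log2(normalised count + 1) with the mean of each diet removed, and p values came from permutations within diets, adjusted over 8 pairs. Hspd1 and Hspe1, which share a promoter region, had a Pearson r of 0.90 and a Spearman rho of 0.90 over 20 libraries (permutation adjusted p = 0.00016 and 8e-05), and r was 0.83 without the 2 libraries farthest from the median. Hsph1 and Hsp90aa1 had r = 0.91 and rho = 0.88 (permutation adjusted p = 4e-05 for both), and 0.88 without 2 libraries. Hspa8 and Hsp90aa1 had r = 0.76 and rho = 0.77 (permutation adjusted p = 0.0008 and 0.00132), and 0.69 without 2. Hspa5 and the ER HSP90, Hsp90b1, had r = 0.68 and rho = 0.56 (permutation adjusted p = 0.0102 and 0.0271), but r was 0.29 without 2 libraries, so this relation rested on them.

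For the inducible HSP70 genes r is given over the 16 libraries below the gap in Hspa1a, since the other 4 form a separate cluster of fewer than 6. In these 16 Hspa1a and Hspa1b had r = 0.96 and rho = 0.95 (permutation adjusted p = 4e-05 for both, r = 0.95 without 2 libraries). These genes share reads. Hspa1b and Dnajb1 had r = 0.81 and rho = 0.72 (permutation adjusted p = 0.00262 and 0.00936), and 0.61 without 2 libraries. For Hspa1b and Hsph1 r was 0.55 and rho 0.60 (permutation adjusted p = 0.0859 and 0.0421), and r was 0.36 without 2. For Hspb1 and Hspa1b r was 0.08 and rho 0.14 (permutation adjusted p = 0.78 and 0.66), and r was -0.27 without 2.

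**Figure D4:**
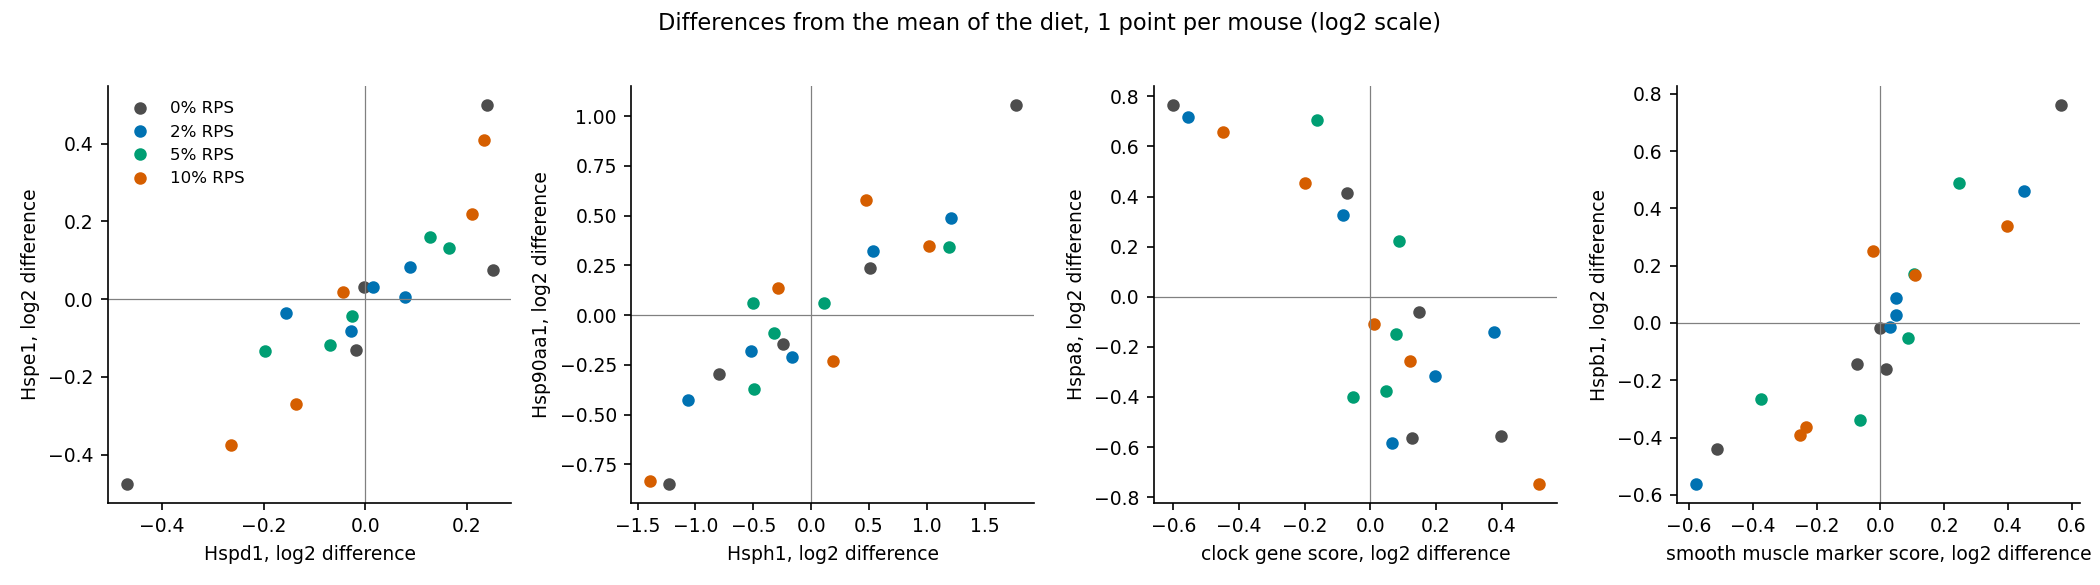
Log2 differences from the mean of the diet in 20 libraries, 1 point per mouse, for Hspe1 against Hspd1, Hsp90aa1 against Hsph1, Hspa8 against the clock gene score, and Hspb1 against the smooth muscle marker score. Points rise from left to right in 3 panels (r = 0.90, 0.91, and 0.92) and fall in that of Hspa8 and the clock genes (r = -0.83).

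Hspa8, Hspa5, Hspd1, and Hspb1 were also compared with other gene lists, each scored per library as the mean log2(normalised count + 1) of its genes (68 relations, permutation within diets, adjusted over the 68). Hspa8 followed the 20 co-chaperones of HSP70 and HSP90 (r = 0.88, rho = 0.88, permutation adjusted p = 0.000227 and 0.00034, 0.87 without 2 libraries). Among these 20 genes 13 had an r of 0.5 or more with Hspa8, led by Chordc1 (0.91), an HSP90 co-chaperone, Ahsa2 (0.89), a relative of the HSP90 activator Ahsa1, and Cacybp (0.84). Hspa8 also passed with 16 listed relatives of HSP70, HSP90, and J-domain proteins (r = 0.88, permutation adjusted p = 0.00034), although Hspa14 among them had r = -0.77. Hspa5 followed the 24 genes of ER chaperones and the unfolded protein response (r = 0.89, rho = 0.70, permutation adjusted p = 0.00219 and 0.0189, 0.73 without 2), of which 17 had an r of 0.5 or more, led by Hyou1 (0.98), the ER exchange factor of Hspa5. Hspa8 and this ER list had r = 0.16 (permutation adjusted p = 0.743). Hspd1 followed the ER list (r = 0.88, rho = 0.88, permutation adjusted p = 0.000567 and 0.000816, 0.78 without 2) and had r = 0.49 with the list of other mitochondrial chaperones and proteases (permutation adjusted p = 0.167). With the cytosolic chaperonin CCT, Hspa5 had r = 0.79 and rho = 0.75 (permutation adjusted p = 0.0148 and 0.016, 0.57 without 2). Hspd1 had r = 0.70 and rho = 0.64 with CCT (permutation adjusted p = 0.0429 and 0.0561, 0.52 without 2).

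Hspa8 was low where the clock gene score was high. The relation with 14 circadian clock genes had r = -0.83 and rho = -0.77 (permutation adjusted p = 0.000544 and 0.00535, -0.81 without 2 libraries). Of the 14, 7 had an r of -0.5 or less, among them Per3 (-0.88), Dbp (-0.86), Hlf (-0.86), and Tef (-0.85), and 4 had an r of 0.5 or more, namely Cry1 (0.83), Bmal1 (0.81), Npas2 (0.79), and Clock (0.53). Bmal1, Clock, and Npas2 are the activators of the clock, and Dbp, Tef, and Hlf are output factors whose transcripts run in another phase. These genes were named after their values were seen. Hspa5 leaned the same way without passing (r = -0.59, rho = -0.62 with the clock score, permutation adjusted p = 0.115 and 0.0746, -0.69 without 2). Of the 14 clock genes, 8 had an r of -0.5 or less with Hspa5 and 2 had 0.5 or more. In each diet the library with the highest Hspa1a had the lowest clock score, 9.51 at 0%, 9.45 at 2%, 9.86 at 5%, and 9.38 at 10% RPS, where the other libraries had 9.63 to 10.51. The part of the clock in these results was not tested, and the labels give no time of tissue collection.

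Hspb1 varied with the smooth muscle markers of the segment. Its r with the score of 11 smooth muscle markers was 0.92 and rho was 0.90 (permutation adjusted p = 0.000227 and 0.00034, 0.85 without 2 libraries), and all 11 markers had an r of 0.81 or more with Hspb1. Its r was 0.86 with the 5 other small heat shock proteins measured, 0.85 with 6 fibroblast markers, and 0.81 with the 3 leukocyte markers measured of 8 (permutation adjusted p = 0.000227, 0.000935, and 0.00068, and 0.80, 0.69, and 0.72 without 2). It also passed with the 16 relatives of HSP70, HSP90, and J-domain proteins (r = 0.66, rho = 0.63, permutation adjusted p = 0.0362 and 0.0424, 0.33 without 2). In the opposite direction it passed with the 2 cold-inducible RNA-binding proteins (r = -0.78, rho = -0.70, permutation adjusted p = 0.00687 and 0.0144, -0.56 without 2). The summed smooth muscle markers ranged from 176612 to 363856 normalised counts at 0% RPS, 160225 to 325548 at 2%, 162385 to 245251 at 5%, and 184261 to 293899 at 10%, with none at 0. For Hspa8 and Hspa5 no smooth muscle marker had an r of 0.5 or more. With the smooth muscle score in the model the log2 fold change of Hspb1 was 0.01, 0.18, and 0.14 at 2, 5, and 10% RPS, and it was called in none of them. Replicate 2 of the 0% RPS diet had the highest smooth muscle (14.62), fibroblast (12.59), leukocyte (8.93), and plasma cell (8.11) scores of all libraries, whose other values ended at 14.43, 11.75, 8.22, and 7.85.

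**Figure D5:**
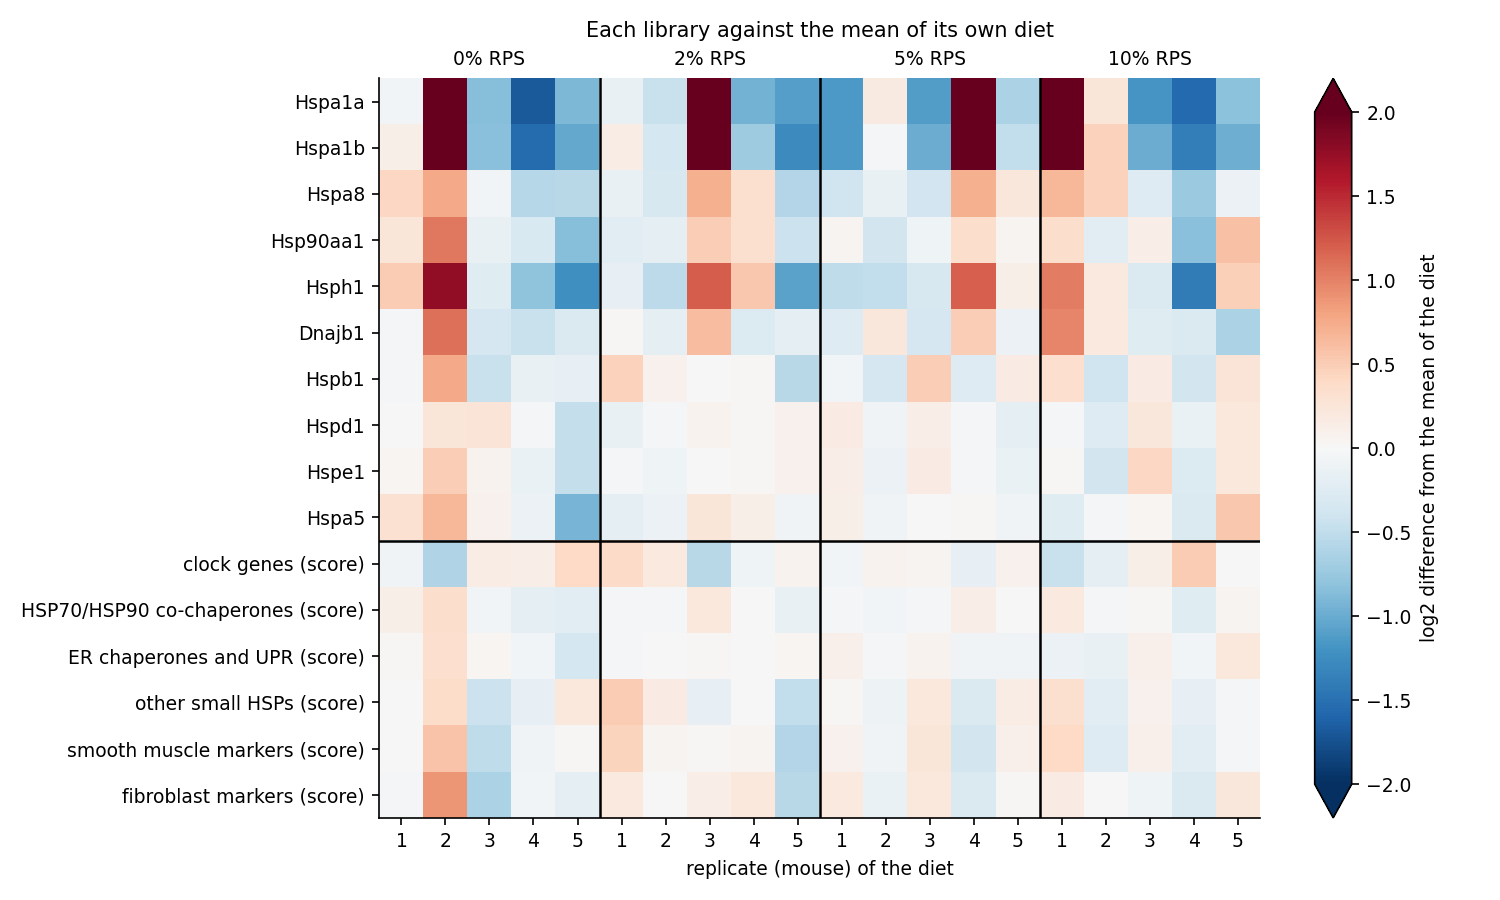
Log2 difference of each library from the mean of its diet, for the 10 heat shock genes (upper rows, log2(normalised count + 1)) and 6 gene list scores (lower rows), with replicates in columns and the colour scale ending at -2 and 2. The red columns of Hspa1a and Hspa1b in 1 mouse per diet are also red for Hspa8, Hsph1, and Dnajb1 and blue for the clock genes, while Hspb1 has the colours of the smooth muscle row.

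For the 8 members other than Hspa1a and Hspa1b, up to 3 of the most similar genes outside the list are given, found among 11531 genes, as a description over 20 libraries that share diets. Hspa8 was most like the J-domain gene Dnaja1 (r = 0.94), Ubqln4 (0.92), and Sdf2 (0.92). Hsp90aa1 was closest to Stip1 (0.98), Ahsa1 (0.97), and the constitutive Hsp90ab1 (0.95), and Hsph1 to Dnajb2 (0.96), Stip1 (0.95), and Hspa4l (0.95). Dnajb1 was closest to Uspl1 (0.94), Jmjd6 (0.94), and Ccdc117 (0.93). For the genes outside this cytosolic group the neighbours were others. Hspb1 was most like Cryab (0.96), a small heat shock protein of muscle, Tpm1 (0.96), a tropomyosin, and Phlda3 (0.95). Hspd1 was nearest to Mrps10 (0.88), a mitochondrial ribosomal protein, Septin11 (0.87), and Hsp90b1 (0.86), and Hspe1 to Septin11 (0.93), Ptges3 (0.88), and Creld2 (0.88). Hspa5 was nearest to Hyou1 (0.98) and Morf4l2 (0.93).

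The other genes of the pathway also gave few calls with the diet. Among 4 measured genes of heat shock factors and their binding proteins, 0 passed an adjusted p of 0.05 in DESeq2 at 2, 5, or 10% RPS or in the trend, where 0.0239%, 1.9%, 4.69%, and 4.29% of all genes passed. Hsf1, the main heat shock factor, had 1259 ± 108, 1140 ± 119, 1173 ± 74.5, and 1086 ± 89.3 normalised counts (SD, n = 5 each) and a log2 fold change of -0.21 at 10% RPS (adjusted p = 0.11). The 20 co-chaperones and the 5 other small heat shock proteins had 0 calls. Of 16 listed relatives of HSP70, HSP90, and J-domain proteins 1 rose, in the trend alone. This was Hspa13, with 717.3 ± 140.0, 730 ± 45.4, 792 ± 38.8, and 885 ± 127 normalised counts and 0.03 per 1% RPS on the log2 scale (adjusted p = 0.0497, edgeR 0.102). Within diets the r of Hspa13 was 0.83 with Hspa5 of the ER and 0.42 with Hspa8 of the cytosol. The 12 other mitochondrial chaperones and proteases and the 8 subunits of the cytosolic chaperonin CCT also had 0 calls.

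Of the 24 genes of ER chaperones and the unfolded protein response, 2 rose at 5% RPS, 2 at 10%, and 1 in the trend. Of all genes, 1.9%, 4.69%, and 4.29% passed the same adjusted p of 0.05 there, in either direction. Whether the list held more calls than other genes was not tested. Of the 24, 0 fell or reached 1.5-fold. Dnajb11, a J-domain partner of Hspa5 in the ER, had 3926 ± 498, 4408 ± 349.7, 5093 ± 431, and 4896 ± 644 normalised counts in the 4 diets from 0 to 10% RPS (SD, 5 mice each), with log2 fold changes of 0.38 at 5% (adjusted p = 0.0205) and 0.32 at 10% (adjusted p = 0.0374). Atf4, a transcription factor of the stress response, was 0.34 higher at 5% RPS (adjusted p = 0.0387), P4hb, a protein disulfide isomerase, 0.25 higher at 10% (adjusted p = 0.0476), and Dnajc3, an ER co-chaperone, 0.03 higher per 1% RPS (adjusted p = 0.0241). edgeR called none of the 24 (adjusted p of these 4 from 0.0782 upwards in the same comparisons). The median log2 fold change of the 24 was 0.09, 0.21, and 0.25 at 2, 5, and 10% RPS, and 16, 21, and 21 had a positive value, beside medians of -0.01, -0.01, and 0.00 for all genes. The mean levels of cell type markers also differed from 0% RPS at these starch levels, but few markers passed. In DESeq2, 1 and 2 of 11 epithelial markers passed an adjusted p of 0.05 at 5 and 10% RPS, beside 1.9% and 4.69% of all genes. Of the smooth muscle, fibroblast, and neuron and glia markers 0 passed at either level, and edgeR called 0 markers of these 4 lists. At 5 and 10% RPS 10 and 10 of 11 epithelial markers had a higher mean than at 0% (median log2 fold change 0.12 and 0.185), whereas 0 of 11 smooth muscle markers (-0.26 and -0.19), 0 of 6 fibroblast markers (-0.39 and -0.28), and 2 and 0 of 8 neuron and glia markers (-0.05 and -0.22) did. Their part in the ER list was not tested. The score of this list had medians of 11.90, 11.93, 12.04, and 12.04 at 0, 2, 5, and 10% RPS, with the lowest value of all libraries at 0% RPS (11.52, replicate 5) and the highest at 10% RPS (12.31, replicate 5).

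Reads of other genes can add to or take from some of these counts. Whether strand was used in counting is not stated. Hspa1a overlaps the antisense transcript Gm20481 and Hspa5 overlaps the gene Rabepk on the other strand, both in the table, and 24.1% and 35.5% of their 50-base windows occur in antisense transcripts, as do 31.9% of those of Hspb1 and 17.6% of those of Hspa1b. Windows also occur in annotated copies that were not in the table, for 40.8% of Hspb1 (Hsp25-ps1), 30.1% of Hsp90aa1 (Gm12346), and 19.5% of Hspd1 (Hspd1-ps3).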

How the data were processed

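Libraries of stranded mRNA from the PC of 20 mice were sequenced as single-end reads of 50 bases. The authors removed bases of low quality, aligned and counted the reads in CLC Genomics Workbench on GRCm39 and deposited raw counts per gene. The annotation, the use of strand, and the treatment of reads with several matches are not given in the sources used here. Libraries were assigned to diets by the treatment in their labels, and replicate numbers only name the mice of a diet.

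The study names DESeq2 with the thresholds used here. All genes were tested with DESeq2 (version 1.42.0, diet as the only term, 20 libraries in 1 fit) in R (version 4.3.3), and with edgeR (version 4.0.16, quasi-likelihood, TMM factors, 12366 genes kept). Adjusted p values are Benjamini-Hochberg values of DESeq2 over all genes unless edgeR or a permutation test is named. Permutation tests of relations used 100000 draws, the smallest p of which is 1e-05. Fits and permutations were tested on simulated data. Gene models were from GENCODE release M39, in which 12682 of 12701 identifiers were found, and promoters were read from GRCm39. Tables and figures were made in Python (version 3.11.15).

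The members, the gene lists, and the tests were chosen with earlier results of these data known. All members are named, and 1 gene among those most similar to a member is not reported here. From each list, the genes past the adjusted p in a comparison with 0% RPS or in the trend are named (at most 4), or else the 2 with the largest change at 10% RPS among those with a mean of 100 normalised counts. Alternatives were edgeR, TMM size factors, a filter of 10 counts in 5 libraries, no independent or Cook filtering, other fold thresholds, only the compared diets, a smooth muscle score as covariate, 3 libraries left out because their sample numbers do not continue the sequence of the rest, and omission of each library. A replicate is 1 mouse, and 5 per diet limit the precision.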

Additional observations from a re-analysis of the deposited data

Results flagged for a closer look

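In 12 of 40 groups of 5 libraries (10 members in 4 diets), 1 library lay farther from the rest than Dixon's critical value of 0.71 allows. All 12 lay on the high side. The gaps were taken on normalised counts and not on their log2. Chance flags about 1 in 20 groups only where values are normally distributed. Skewed counts are flagged more readily, so the number of flags cannot be set against that rate. Groups of different members hold the same mice, so these are not independent. Hspa1a was flagged in every diet, at 3299.9 normalised counts in replicate 2 of the 0% RPS diet, 1466.4 in replicate 3 of the 2% RPS diet, 1741.6 in replicate 4 of the 5% RPS diet, and 3093.5 in replicate 1 of the 10% RPS diet. Hspa1b was flagged in the same 4 libraries, at 7347.4, 2729.9, 4537.9, and 5513.0 normalised counts. Hsph1 was flagged at 9207.0 in replicate 4 of the 5% RPS diet. Dnajb1 was flagged at 3345.7 in replicate 2 of the 0% RPS diet and at 2430.1 in replicate 3 of the 2% RPS diet. Hspb1 was flagged at 1567.1 in replicate 2 of the 0% RPS diet, the library with the highest smooth muscle and fibroblast scores.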

How the results depend on the processing

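No member was called under any alternative in a comparison of diets with the 1.5-fold threshold. No paired analysis was possible because the labels give the diets no shared replicate numbers. Switching off Cook filtering, the restriction of the 4 pairs with Hspa1b to 16 libraries, and the relations with gene lists were chosen after seeing the data. The log2 fold changes that turned direction were not called, and the cause was not tested. With the smooth muscle score as covariate they were 0.18 for Hspa1a, 0.06 for Dnajb1, and 0.01 for Hspb1 at 2% RPS, 1.68 for Hspa1a, 1.43 for Hspa1b, 0.30 for Hsph1, and 0.18 for Hspb1 at 5%, and 0.76 for Hspa1a, 0.54 for Hspa1b, and 0.14 for Hspb1 at 10%. Without the 3 libraries whose numbers lie outside the run they were 0.03 for Hspb1 at 2% and 0.59 for Hspa1a, 0.33 for Hspa1b, and 0.11 for Hspa8 at 10%. For the sum of Hspa1a and Hspa1b, the log2 ratio of the arithmetic mean counts at 10% and 0% RPS was -0.20. Leaving out 1 library at a time, 0 to 1 members had a trend (1 without replicate 2 of the 0% or of the 10% RPS diet), and the log2 difference of the sum ranged from -0.90 to 0.52 at 2%, -0.78 to 0.73 at 5%, and -0.73 to 0.86 at 10% RPS. At 2% RPS the log2 fold change ranged from -2.37 to 1.27 for Hspa1a, -2.07 to 0.94 for Hspa1b, -0.31 to 0.22 for Hsp90aa1, -0.95 to 0.17 for Hsph1, -0.26 to 0.33 for Dnajb1, -0.22 to 0.16 for Hspb1, -0.05 to 0.11 for Hspd1, and -0.17 to 0.19 for Hspa5. At 5% RPS it ranged from -2.17 to 1.5 for Hspa1a, -1.98 to 1.45 for Hspa1b, -0.41 to 0.04 for Hspa8, -0.13 to 0.39 for Hsp90aa1, -0.71 to 0.44 for Hsph1, -0.13 to 0.41 for Dnajb1, and -0.26 to 0.12 for Hspb1. At 10% RPS it ranged from -2.04 to 2.16 for Hspa1a, -1.82 to 1.70 for Hspa1b, -0.33 to 0.09 for Hspa8, -0.26 to 0.75 for Hsph1, -0.29 to 0.44 for Dnajb1, and -0.20 to 0.15 for Hspb1. The r of Hspb1 with Hspa1b ranged from -0.16 to 0.35.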

Other observations

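Of 15 immediate-early genes measured of 18 listed, 15, 15, and 14 had a higher mean at 2, 5, and 10% RPS than at 0%, and 1 passed an adjusted p of 0.05 in DESeq2 at 2% RPS (0.0239% of all genes), 0 at 5% (1.9%), and 1 at 10% (4.69%), while edgeR called 0. This was Atf3, a stress-induced transcription factor, with log2 fold changes of 1.01 at 2% (adjusted p = 0.016, edgeR 0.591), 0.55 at 5% (adjusted p = 0.168, edgeR 0.246), and 0.82 at 10% RPS (adjusted p = 0.0121, edgeR 0.0704). Its mean was highest at 2% RPS, where the SD of the 5 mice was 299.9 normalised counts, against 89.2, 93.0, and 94.1 at 0, 5, and 10%. Among 11 epithelial markers Krt20, a keratin of mature surface cells, had a log2 fold change of 0.45 at 5% RPS (adjusted p = 0.0476) and of 0.47 at 10% RPS (adjusted p = 0.0193), and Epcam, an epithelial adhesion molecule, rose at 10% RPS by 0.19 (adjusted p = 0.00666), with 0 of the 11 called by edgeR, so that 1 of 11 passed at 5% RPS (1.9% of all genes) and 2 at 10% (4.69%). All 11 smooth muscle markers had lower means at 5% and 10% RPS than at 0%, and 0 of them passed in DESeq2 or edgeR. Of 14 clock genes 4 had a higher mean at 10% RPS than at 0%, with a median log2 fold change of -0.46, and 0 passed there. In the trend 1 of 14 passed (4.29% of all genes), which was Per1, a repressor of the clock. It fell by 0.06 per 1% RPS on the log2 scale (adjusted p = 0.0426, edgeR 0.103).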
